A study of Homo sapiens with 6 samples.

Results

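The genes described are 9 genes of the p53 pathway: MDM2 and MDM4, which restrain p53, and CDKN1A, BBC3, BAX, GADD45A, SESN1, TP53I3 and ZMAT3, which p53 can switch on. They were chosen by name, with earlier results of these data known. Every peak that overlapped a gene's span or the 10 kb on either side of it was counted, a rule that uses no measured value. All 9 were found among the 20033 protein-coding genes of the gene table (RefSeq, GRCh38.p14), and all 9 had a peak in this window in each of the 6 libraries, as did 87.2% of all protein-coding genes. The gene for p53 itself was not analysed here. Chromatin accessibility was measured by ATAC-seq, in which a transposase inserts sequencing adapters into open DNA, in NCI-H1703 cells, an established line from a human lung squamous cell carcinoma. The compared groups were cells with the long non-coding RNA DLGAP1-AS2 silenced (3 libraries, whose titles carry the letters ASO) and control cells (3 libraries, titled NC), all of the same line. The labels give neither the time after silencing nor the nature of the control, and they do not say that libraries came from separate cultures, so spreads between libraries may be technical. All results come from 1 cell line, and the files hold no RNA measurement.

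The protein p53 is a transcription factor that is stabilised when DNA is damaged or cells are stressed. It binds pairs of short half-sites in DNA and raises the transcription of genes that halt the cell cycle, repair damage, limit oxidative stress or start apoptosis. MDM2 marks p53 for degradation and is itself a p53 target, which closes a feedback loop. MDM2 is transcribed from an outer promoter that does not need p53 and from an inner promoter, in the first intron, that p53 activates. Accessible chromatin at a promoter shows that the DNA can be reached, and it does not measure how much RNA is made.

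The lists held 91346 to 170882 peaks on the chromosomes. The number of reads is unknown. The lowest background that the peak caller used in a list stands in for depth, and it ran from 0.237 in silenced replicate 3 to 0.464 in control replicate 2. These 2 libraries stood apart, since silenced replicate 3 had the lowest background and the lowest peaks, and control replicate 2 the shortest list. Marker genes with no strand given were judged at either end of their span instead of at a start. Of 7 squamous marker genes, 1 (SOX2) had a peak at its start in all 6 libraries, KRT5 and KRT6A had none there in any, and TP63 had one in 1 library. Of 4 lung adenocarcinoma or alveolar markers, 3 (NKX2-1, NAPSA and SFTPC) had such a peak in all 6. All 6 libraries had a peak at the start of 0 of 4 epithelial, 3 of 4 mesenchymal, 1 of 3 immune and 0 of 2 endothelial markers. The defining squamous keratin genes KRT5 and KRT6A thus had no called peak within 1000 bp of a start in cells labelled as squamous carcinoma.

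RefSeq gave a promoter sequence, from 250 bases before to 50 after a transcription start, for 8 of the 9 genes (14 entries, several genes having more than 1 start). GADD45A had no entry. Sequences are shown for the promoters that held a p53 site by the rules below, for the outer MDM2 promoter beside the inner one, for CDKN1A, and for BBC3, the 1 gene with an entry and no called start, on the strand of the gene, with coordinates in GRCh38.p14. The first pair are the outer and inner MDM2 promoters, chr12:68807922-68808221 and chr12:68808767-68809066, both on the plus strand. Capitals mark a p53 full site, meaning 2 adjoining half-sites with at most 1 mismatch each to the p53 half-site consensus. No mismatch was allowed at the core C and G of a half-site. This relaxed rule was chosen after the data were seen.
MDM2 outer promoter: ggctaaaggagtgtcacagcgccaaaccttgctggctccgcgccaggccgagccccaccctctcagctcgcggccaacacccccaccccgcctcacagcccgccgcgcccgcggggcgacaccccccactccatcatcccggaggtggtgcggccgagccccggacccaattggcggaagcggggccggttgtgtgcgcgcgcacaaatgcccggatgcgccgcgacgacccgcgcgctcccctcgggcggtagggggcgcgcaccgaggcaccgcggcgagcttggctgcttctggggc
MDM2 inner promoter: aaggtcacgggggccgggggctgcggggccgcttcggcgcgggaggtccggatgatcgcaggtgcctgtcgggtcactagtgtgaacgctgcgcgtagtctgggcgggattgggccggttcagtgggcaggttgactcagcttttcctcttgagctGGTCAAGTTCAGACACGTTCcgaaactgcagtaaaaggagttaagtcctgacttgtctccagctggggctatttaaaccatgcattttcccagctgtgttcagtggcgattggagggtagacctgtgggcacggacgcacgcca
The relaxed full site stood 94 bases before the inner start, and 0.157% of 35116 promoters of the same length held one. Among the members, the 2 overlapping entries of the inner MDM2 promoter held it and the other 12 did not. An exact full site with a spacer of 0 to 13 bases was in 0.0285% of all promoters and in 0 of the 14. An exact half-site, found in 6.63% of all promoters, was in 1 of the 14, the innermost SESN1 start (chr6:109008939-109009238, minus strand), where capitals mark it at 49 bases before the start.
SESN1 innermost promoter: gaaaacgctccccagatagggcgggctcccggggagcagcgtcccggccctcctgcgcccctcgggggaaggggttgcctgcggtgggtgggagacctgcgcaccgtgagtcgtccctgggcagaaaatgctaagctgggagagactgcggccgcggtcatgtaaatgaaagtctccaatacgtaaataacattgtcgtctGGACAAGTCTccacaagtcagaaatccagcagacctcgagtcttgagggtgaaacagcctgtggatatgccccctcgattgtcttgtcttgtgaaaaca
The CDKN1A promoter (chr6:36678464-36678763, plus strand) is shown with GGGCGG, the GC box bound by SP-family factors, in capitals on either strand. It held 4, the last pair overlapping by 1 base, and 45.0% of all promoters and 10 of the 14 entries held at least 1.
CDKN1A promoter: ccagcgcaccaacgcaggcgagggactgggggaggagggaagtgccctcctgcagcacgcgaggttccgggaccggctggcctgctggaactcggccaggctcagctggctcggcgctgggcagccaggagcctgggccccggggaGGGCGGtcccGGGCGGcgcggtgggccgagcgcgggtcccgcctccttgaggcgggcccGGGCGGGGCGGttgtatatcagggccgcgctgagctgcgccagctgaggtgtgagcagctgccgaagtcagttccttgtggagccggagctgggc
The annotated BBC3 promoter (chr19:47232618-47232917, minus strand) is shown because no library had a peak over it. It held no GC box and had a GC content of 48.0%, against 74.3% at CDKN1A and 74.7% at the outer MDM2 start. The MDM4 and TP53I3 entries, which overlapped regions called in all 6 libraries, also held no GC box, at GC contents of 52.7% and 54.3%. The other entry under no region, the second ZMAT3 start, held none either and had 37.7%. A link between GC content and peaks was not tested.
BBC3 promoter: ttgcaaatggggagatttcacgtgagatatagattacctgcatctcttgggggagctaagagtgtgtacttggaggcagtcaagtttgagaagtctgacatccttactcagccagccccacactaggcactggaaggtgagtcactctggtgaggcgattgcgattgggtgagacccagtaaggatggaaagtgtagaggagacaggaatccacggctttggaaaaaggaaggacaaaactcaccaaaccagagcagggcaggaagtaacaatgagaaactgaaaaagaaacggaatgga
The letters GGAATG, the core bound by TEAD factors that partner with YAP, were in 14.0% of all promoters and in 3 of the 14 entries, of BBC3, TP53I3 and the inner SESN1 start. Such matches describe the letters only and do not show binding.

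MDM2, the ubiquitin ligase that targets p53, spans chromosome 12 from 68808172 to 68850686. Its outer and inner promoters were called as separate regions. The outer region (68807480 to 68808444) was called in every library, with heights, meaning the authors' pileup of sequenced reads or fragments at the peak, without scaling to depth, of 31, 35 and 14 in silenced replicates 1, 2 and 3 and of 32, 44 and 26 in control replicates 1, 2 and 3. Silenced replicate 3 was lowest and the groups overlapped. The inner region (68808566 to 68809148), which covers the promoter with the relaxed p53 site, reached 13 and 17 in replicates 1 and 2 of the silenced cells, against 16, 11 and 17 in the controls. Silenced replicate 3, the library of lowest background, had no call there. In every library that called both, the inner peak was lower than the outer one. The authors' fold enrichment over local background was 3.51 to 6.52 at the inner and 7.89 to 13.2 at the outer region. Another region inside the gene (68830225 to 68830561), centred 21369 bases from the nearest start, was also called in all 6 libraries, with heights of 25, 16 and 4 in silenced and 18, 11 and 15 in control libraries. Its place among the shared regions ran from 14.3% to 83.3% from the top, both extremes being silenced libraries, so it varied more within the silenced group than between groups.

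MDM4, the relative of MDM2 that inhibits p53 by binding it, spans chromosome 1 from 204516406 to 204558120. Its start region (204515814 to 204516805) had heights of 71, 82 and 32 in silenced and 57, 82 and 69 in control libraries. It was the most enriched of all member start regions, at 14.3 to 18.7-fold over local background. A region of similar breadth (204506107 to 204507302), centred 9702 bases from the start and outside any gene span of the table, was called in all 6 libraries with heights of 37, 48 and 25 in silenced and 29, 47 and 40 in control libraries. Another (204565785 to 204566166), beyond the far end of MDM4 and within LRRN2-AS1, a long non-coding RNA gene, had heights of 12 to 22. The remaining 15 of the 18 regions in this window were called in fewer than 3 libraries.

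CDKN1A encodes p21, the inhibitor of cyclin-dependent kinases through which p53 halts the cell cycle, and spans chromosome 6 from 36676463 to 36687332. The start region (36678400 to 36679535) had heights of 34, 48 and 17 in silenced and 33, 55 and 45 in control libraries, and the groups overlapped. It also covered the start of DINOL, a long non-coding RNA gene beside CDKN1A, so its signal cannot be assigned to 1 of the 2 genes. A second region inside the gene (36679886 to 36680802) had heights of 27, 27 and 12 in silenced and 26, 37 and 38 in control libraries. Upstream of the start region, 3 regions were called within the window, each in 1 or 2 libraries and at heights of 3 to 8, so no upstream region was shared by the libraries.

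GADD45A, a stress protein of growth arrest and DNA repair, spans chromosome 1 from 67685201 to 67688334. The region at the low end of its span (67684897 to 67685569) had heights of 80, 86 and 55 in silenced and 106, 116 and 110 in control libraries. All 3 silenced heights lay below all 3 control heights. Heights are not scaled to depth, and in 8.79% of the 37284 regions shared by all libraries the silenced heights were likewise all below the control heights. Over the same regions ranked within each list, the GADD45A region stood at 28.4%, 30.4% and 15.8% from the top in silenced and 18.7%, 20.5% and 16.5% in control libraries, and the groups overlapped. A region centred 2266 bases outside the low end (67682710 to 67683161) was called in all 3 silenced libraries, with heights of 24, 21 and 17, and in control replicate 1, with a height of 24, but not in control replicates 2 and 3. A region within the gene (67686365 to 67686976) was shared by all 6 libraries with heights of 20 to 41. The peak at the low end of the span had a fold enrichment of 10.7 to 13.7. The local background derived from its height and fold enrichment was 3.96 to 8.16, well above the lowest background of each list.

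BBC3 encodes PUMA, a BH3-only protein that triggers apoptosis, and spans chromosome 19 from 47220824 to 47232860. BBC3 had 1 start with a promoter entry (47232667), and any other start of the gene was not examined. No library had a peak over that start, and the nearest region shared by all 6 libraries ended 4474 bases away, inside the gene. Nearer the start, a region (47231211 to 47231462) centred 1331 bases away was called in 3 libraries. Its heights were 15 and 19 in silenced replicates 1 and 2 and 15 in control replicate 2. Of the 8 members with a promoter entry, 7 had at least 1 start under a peak in all 6 libraries, and BBC3 had none in any, where 50.2% of 15842 protein-coding genes had one in all 6 and 31.1% in none. The shared region inside the gene (47227139 to 47228193) had heights of 37, 32 and 25 in silenced and 34, 38 and 36 in control libraries. A neighbouring region inside the gene (47226048 to 47226472) reached 24 and 18 in replicates 1 and 2 of the silenced cells and 29, 31 and 25 in the controls, with no call in silenced replicate 3. A further internal region (47228433 to 47228750) was called in silenced replicates 1 and 2 and control replicates 2 and 3 at heights of 31, 33, 28 and 18. Of the last 3 regions described, 1 was called in all 6 libraries, 1 in 5 and 1 in 4. The local background behind the shared internal peak was 2.32 to 6.88 and its fold enrichment 4.95 to 7.83.

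BAX encodes the effector that permeabilises mitochondria, and spans chromosome 19 from 48954875 to 48961798. Its start region (48954497 to 48955133) had heights of 23, 21 and 15 in silenced and 33, 31 and 25 in control libraries. Here too the silenced heights were all below the control heights, while the ranks, 22.4%, 36.0% and 18.9% from the top in silenced and 18.8%, 18.5% and 25.1% in control libraries, overlapped. Of the other shared regions in the window, 1 (48965078 to 48966092) covered the start of FTL, the ferritin light chain gene, and 2 lay inside GYS1, the muscle glycogen synthase gene. Thus 3 of the 5 shared regions of this window lay over neighbouring genes. Between the end of BAX and FTL, a weak region (48962169 to 48962619) had heights of 19, 19 and 11 in silenced and 15, 19 and 17 in control libraries. It was the 1 shared member region whose ranks did not overlap between groups, at 92.0%, 92.8% and 80.4% from the top in silenced and 97.9%, 98.1% and 96.4% in control libraries. The difference of 0.73 ± 0.44 (SE) score units did not pass the test (limma, adjusted p = 0.963).

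TP53I3, an oxidoreductase linked to reactive oxygen species, spans chromosome 2 from 24077433 to 24084834. Its start region (24083805 to 24084994), which also lies within the span of FAM228B, had heights of 92, 110 and 37 in silenced and 92, 102 and 104 in control libraries. Silenced replicate 3 was far below the other 5 libraries, which overlapped. The tallest peak of the window was not at TP53I3 but centred 8371 bases away (24075979 to 24076947), at the starts of SF3B6, a splicing factor gene, and FAM228B. It had heights of 148, 166 and 103 in silenced and 165, 179 and 132 in control libraries.

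SESN1 encodes sestrin 1, which links p53 to the control of oxidative stress and of growth signalling, and spans chromosome 6 from 108984309 to 109094846. Its outer start region (109094342 to 109095725) had heights of 57, 73 and 32 in silenced and 82, 77 and 87 in control libraries. All silenced heights were below all control heights, as in 8.79% of all shared regions. Ranked within each list, it stood at 31.5%, 30.2% and 24.2% from the top in silenced libraries. In control libraries it stood at 19.8%, 30.1% and 20.9%, so the ranks of the groups overlapped. That region also covered the start of the neighbouring gene CEP57L1, so its signal cannot be assigned to either gene alone. The inner start region (109009377 to 109009992) had heights of 33, 31 and 12 in silenced and 35, 30 and 26 in control libraries, and there the heights of the groups overlapped. A region over the innermost start, the one with the exact half-site, was called in 2 libraries, silenced replicate 2 and control replicate 3. Both SESN1 start regions were shared by all libraries, so 2 of its starts were accessible in silenced and control cells.

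ZMAT3, a zinc finger protein that binds RNA, spans chromosome 3 from 179017223 to 179072513. Its start region (179071147 to 179072374) had heights of 20, 22 and 9 in silenced and 13, 24 and 23 in control libraries. Silenced replicate 3 and control replicate 1 were low, 1 in each group. A shared region 179015445 to 179016042, outside the far end of the gene, had heights of 15, 11 and 12 in silenced and 11, 16 and 18 in control libraries. A second annotated start at 179069342 had no peak in any library.

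**Figure D1:**
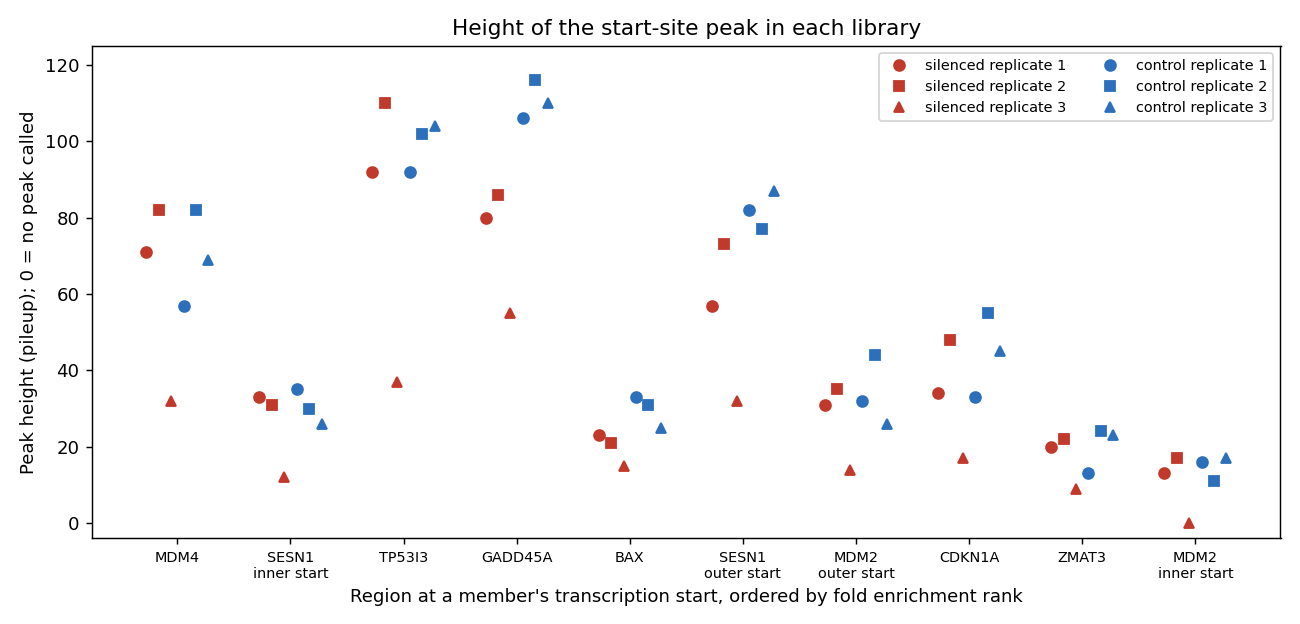
Height of the start-site peak (pileup, vertical axis) for 10 start regions of 8 genes (horizontal axis), with 1 point per library, silenced in red and control in blue, and 0 where no peak was called. Silenced replicate 3 is lowest at each of these regions, and heights at GADD45A, BAX and the outer SESN1 start do not overlap between groups.

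The plot of heights shows that silenced replicate 3 was lowest in all of these start regions. Over the 23 shared regions in the 9 windows it was lowest, or tied for lowest, in 21. The silenced heights were all below the control heights in 4 of the 23 regions (17.4%), at BAX, GADD45A, the outer SESN1 start and a region beyond the BBC3 start, against 8.79% of all shared regions. The reverse was seen in 0 of the 23 and in 0.161% of all. The part of depth in these heights was not tested separately, and ranks within each list were used for the comparison.

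**Figure D2:**
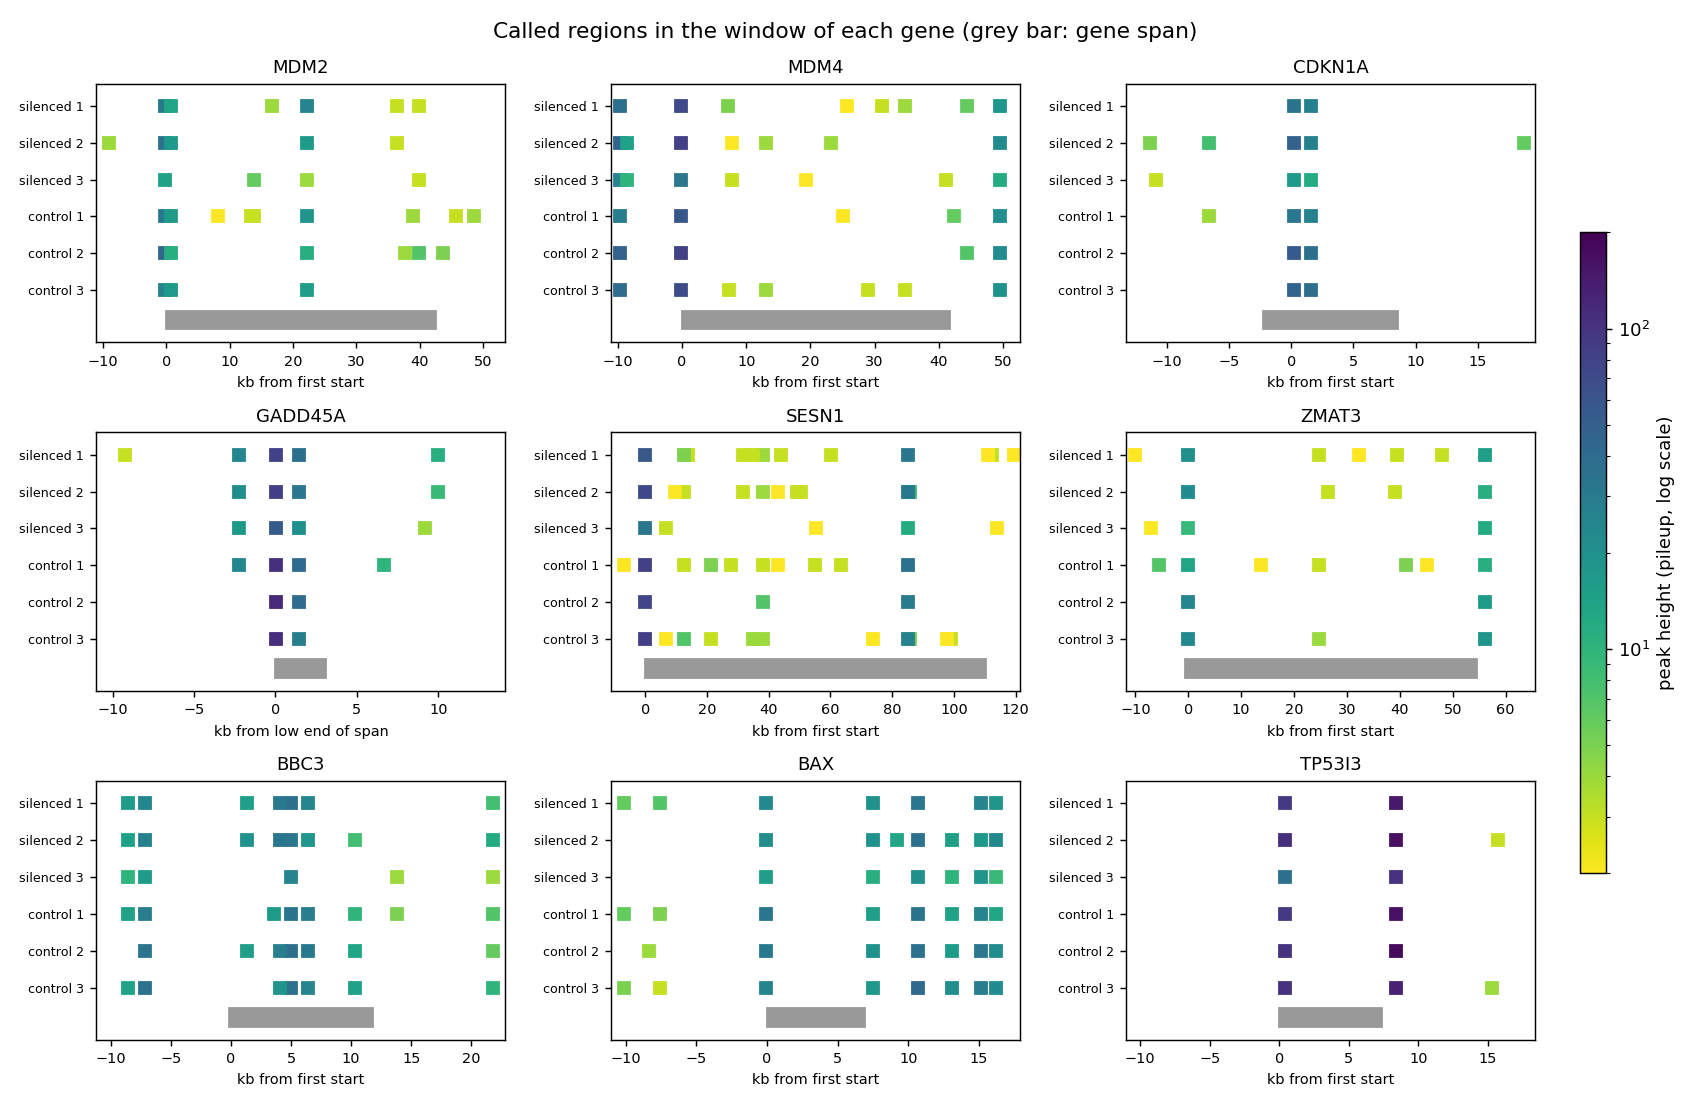
Regions called in each library (rows) along the window of each gene, as distance in kb from the first annotated start in the direction of transcription (for GADD45A, from the low end of its span), with colour giving peak height on a log scale and the grey bar the gene span. The tall start-site peaks line up in all 6 rows, whereas many pale squares stand in a single row.

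The map of called regions shows tall peaks at the same places in all libraries and scattered low ones between them. The 9 windows held 112 regions after the 6 lists were merged. Of these, 23 (20.5%) were called in all 6 libraries and 59 (52.7%) in a single library. Over all 291786 regions in windows of protein-coding genes, 9.60% were called in all 6 and 70.8% in 1, and over the whole genome 7.35% were called in all 6. The member regions called in 1 library had a median height of 3, and none covered a member's start. In the order MDM2, MDM4, CDKN1A, BBC3, BAX, GADD45A, SESN1, TP53I3 and ZMAT3, the shared regions numbered 2, 3, 2, 3, 5, 2, 2, 2 and 2. A further 5 regions were called in 5 libraries, and the library without a call was silenced replicate 3 in 3 of them, at the inner MDM2 start, inside BBC3 and inside SESN1. It was silenced replicate 1 in 1 region and control replicate 2 in 1.

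**Figure D3:**
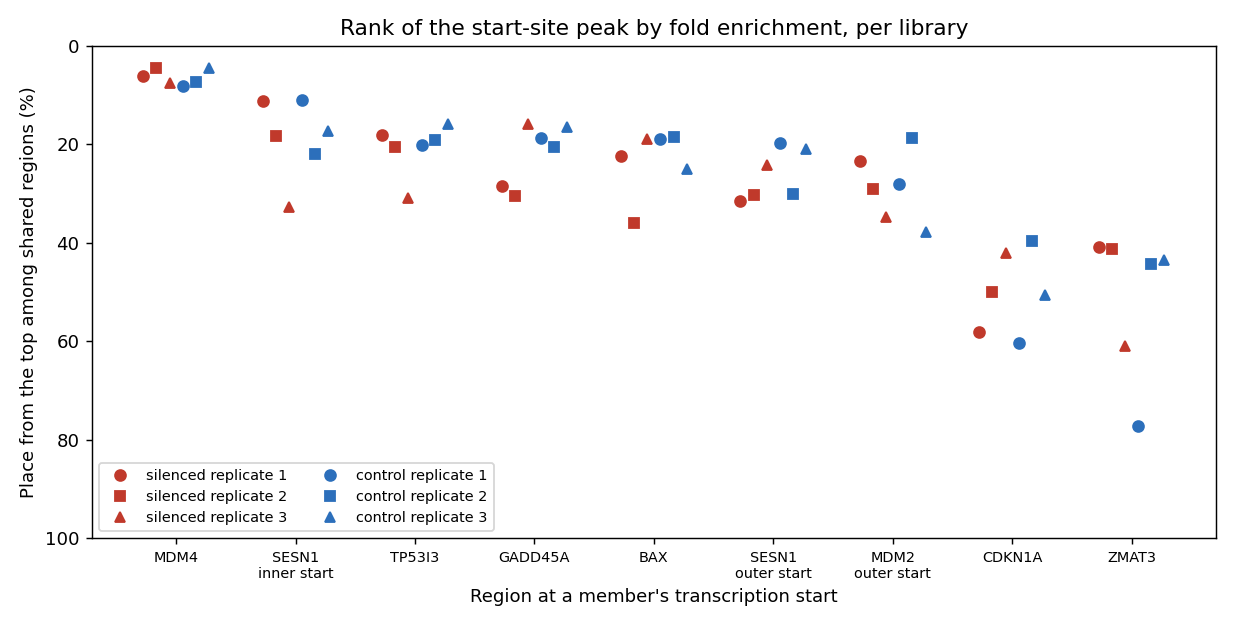
Place of each start-site peak from the top (vertical axis, in percent, 0 at the top) when the 37284 shared regions are ranked by fold enrichment within each library; points are libraries, silenced in red and control in blue. MDM4 lies within the top 8.19% in every library, and CDKN1A and ZMAT3 lie lowest.

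Ranking the same shared regions in each list puts the libraries on a common scale, as the plot of ranks shows. MDM4 stood highest, at 4.52% to 8.19% from the top, clear of every other member start. The inner SESN1 start followed at 11.0% to 32.8%, then TP53I3 at 15.9% to 30.9%, GADD45A at 15.8% to 30.4%, BAX at 18.5% to 36.0%, the outer SESN1 start at 19.8% to 31.5% and the outer MDM2 start at 18.8% to 37.8%. These 6 overlapped one another and their order is not resolved by 6 libraries. CDKN1A, at 39.6% to 60.3%, and ZMAT3, at 40.8% to 77.2%, were below all of them and overlapped each other. By height the order differed, since CDKN1A with a height of 17 to 55 was taller than BAX with 15 to 33. The local background of CDKN1A, 1.54 to 4.92, was higher than that of BAX, 0.520 to 1.64, and its fold enrichment, 6.94 to 9.52, was below the 10.1 to 13.2 of BAX.

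The comparison of silenced with control cells asked whether loss of DLGAP1-AS2 shifted accessibility at these genes. None of the 9 start regions called in all 6 libraries passed the test. Starts without such a region were not tested. Among them were the inner MDM2 start (called in 5 libraries), the innermost SESN1 start (called in 2) and the BBC3 start (called in 0). The ranks were turned into normal scores, in which 1 unit is 1 standard deviation of the regions in a list, and tested with limma over all 37284 shared regions. Of these, 0 (0%) passed at an adjusted p under 0.05, and 4.68% had an unadjusted p under 0.05, against 0 of the 23 member regions. In simulated scores the test recovered 0 of 200 regions shifted by 1 unit. Failing the test therefore does not show that accessibility was equal. The differences, silenced minus control, ran from −0.22 to 0.73 over the 23, with 10 above and 13 below 0 and a median of −0.034, where the median of all shared regions was 0.0066. At the starts they were 0.048 ± 0.19 (SE) for MDM4, −0.039 ± 0.23 for the outer MDM2 start, 0.0017 ± 0.29 for CDKN1A and −0.20 ± 0.22 for GADD45A (limma, adjusted p = 0.986, 0.992, 0.9997 and 0.965). For BAX, TP53I3 and the outer SESN1 start the differences were −0.15 ± 0.22, −0.16 ± 0.21 and −0.16 ± 0.22 (SE), and for the inner SESN1 start and ZMAT3 −0.13 ± 0.23 and 0.20 ± 0.32. In 1 of the 23 regions (4.35%) the ranks of the groups did not overlap, against 10.2% of all shared regions.

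**Figure D4:**
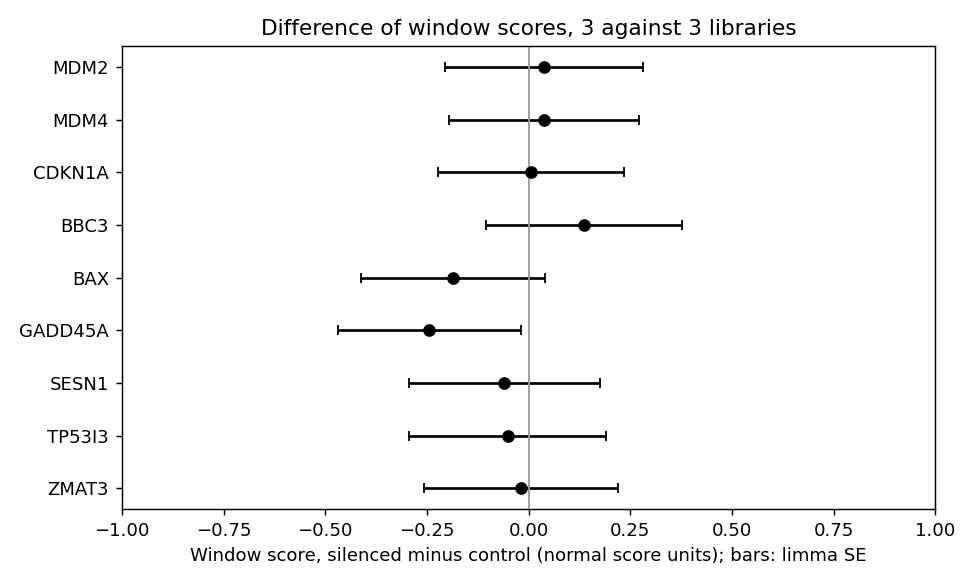
Difference of the window score (horizontal axis, silenced minus control, normal score units) for the strongest peak in each gene's window, with limma standard errors as bars and 3 libraries per group. All 9 values lie between −0.24 and 0.14, and the bar of GADD45A alone does not reach 0. The strongest peak can differ between libraries or lie at a neighbouring gene.

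A second test ranked, for each gene, the most enriched peak in its window over the 17467 genes with a window peak in all libraries. That peak could differ between libraries or lie at a neighbouring gene. For TP53I3 it was the peak at SF3B6 and FAM228B in every library, at 17.4 to 19.5-fold. For BBC3 it was a different peak in each silenced library. For MDM2 it was the region centred 21369 bases from the nearest start in silenced replicate 1 and control replicate 1, and the outer start region elsewhere. None of the 9 passed, and neither did any other gene (0%, limma at an adjusted p under 0.05), while 4.84% of all genes and 0 of the 9 had an unadjusted p under 0.05. As the plot of window score differences shows, the smallest value was −0.24 ± 0.23 (SE) at GADD45A and the largest 0.14 ± 0.24 at BBC3 (limma, adjusted p = 0.974 and 0.979). The other 7 lay between −0.19 at BAX and 0.04 at MDM4. The scores of the 2 groups overlapped in all 9 genes, where they did not overlap in 9.86% of all genes. The standard errors of the 9 differences were 0.23 to 0.24 score units, and a p-value above the threshold does not show that accessibility was equal.

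The presence of peaks gave no group-specific call either. In the 9 windows, 0 of 112 regions were called in all 3 silenced and no control libraries, or in all 3 control and no silenced libraries, where 0.130% and 0.200% of all 507440 regions were. The number of peaks per window overlapped between the groups in all 9 genes, where it did not in 3.02% of all protein-coding genes (1.60% with more peaks in silenced and 1.42% with fewer). It was 6, 5 and 4 in silenced and 9, 6 and 4 in control libraries for MDM2, and 8, 7 and 7 against 5, 5 and 7 for MDM4. For GADD45A it was 5, 4 and 4 against 4, 2 and 2, groups that met only through control replicate 1. Without that library, GADD45A and ZMAT3 no longer overlapped, both with more peaks in silenced libraries. ZMAT3 then had 7, 4 and 4 peaks in silenced and 3 and 3 in control libraries. GADD45A then had 1 region, the one centred 2266 bases outside the low end, called only in silenced libraries. With that library left out, 7.94% of all protein-coding genes did not overlap and 0.255% of all regions were called only in silenced libraries. For SESN1, the longest window, the numbers were 12, 10 and 6 against 10, 3 and 11, with the lowest in control replicate 2, the shortest list. With lists cut to equal size, ZMAT3 had the opposite direction, with 2 peaks in each silenced library and 4, 3 and 3 in the controls. A region inside BBC3 (47222087 to 47222347) was then called only in control libraries. At that list size 3.62% of all protein-coding genes did not overlap and 0.3603% of 247858 regions were called only in control libraries.

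Other p53 targets were read from the same fit. Of 40 further targets, 38 had a window peak in all libraries and 0 passed the test, with 25 above and 13 below 0, a median difference of 0.074 score units and a median of 0.011 over all genes. GDF15, a secreted stress cytokine named after its values were seen, was the 1 gene of the 38 with an unadjusted p under 0.05. Of all genes tested, 4.84% had such a p (limma). At least 1 start was under a peak in all 6 libraries in 23 of the 30 that had a promoter entry. Among all protein-coding genes with an entry the share was 50.2%. EDA2R and TNFRSF10C, both members of the TNF receptor family, lacked a window peak in at least 1 library. Of 463 regions in these windows, 2 (0.432%) were called only in control libraries, near BTG2, an antiproliferative gene, with heights of 14, 14 and 13, and near PHLDA3, an inhibitor of AKT, with heights of 13, 13 and 9. A region near DRAM1, a lysosomal gene of autophagy, was the 1 (0.216%) called only in silenced libraries, with heights of 4, 3 and 3. Over all regions, 0.200% were called only in control and 0.130% only in silenced libraries. With 3 libraries a group, no single presence or absence call can reach an exact p under 0.05. Of 12 regulators of p53 activity, among them ubiquitin ligases, acetyltransferases and a deubiquitinase, 0 passed, with 6 above and 6 below 0, and 9 of the 10 with a promoter entry had a start under a peak in all libraries.

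The window scores of single genes across the 6 libraries were also compared by distance. The genes closest to MDM2 were RTP2, BCL6 and ARF6, at Euclidean distances of 0.204, 0.208 and 0.292 score units. Those closest to CDKN1A were D2HGDH, LDB1 and CLEC7A, at 0.195, 0.205 and 0.223. With 6 libraries and 17467 genes such distances describe levels in these libraries only.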

How the data were processed

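Peak lists from 6 ATAC-seq libraries were analysed, 1 list per library. Per the submitters' processing notes, the tools were Trimmomatic 0.36, Bowtie2 2.2.6, Picard 2.8.2, MACS2 2.1.1 and bedtools 2.25.0, on GRCh38; their order, parameters and any shift for the transposase offset are not given in the sources used here. Per the file headers, the authors deposited for each peak a fold enrichment (a ratio), a p-value, an FDR (an adjusted p-value) and a pileup signal, here called height. They were used to describe and rank peaks within a list. Intervals count from 1, none is repeated, and the largest p-value was 0.00987.

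The members and gene lists were chosen with earlier results of these data known. Lists were merged at an overlap of 1 bp into 507440 regions on chromosomes 1 to 22, X and Y. The background behind a peak was taken as (height + 1) / fold enrichment − 1, and the minimum over a list stands in for its depth. For regions or gene windows (span plus 10 kb) called in all 6 lists, the largest fold enrichment was ranked within each list, turned into normal scores and tested with limma 3.58.1 (R 4.3.3, mean-dependent prior), without covariates, with Benjamini-Hochberg adjustment over all features and a threshold of 0.05. The test was tried on simulated scores with the means and spreads of these libraries, drawn independently. A shift of 1 score unit was recovered in 0 of 200 genes and 0 of 200 regions. A shift of 2 units was recovered in 180 of 200 genes and 144 of 200 regions. Named genes are the 9 members and, of 2 further p53 lists, genes that were called, that lacked a window peak in a library or that held a region called in 1 group only; GDF15 was named outside this rule. Likeness was the Euclidean distance over 6 window scores. A marker gene counted as open with a peak midpoint within 1000 bp of a start, or of either span end where no strand was given. Starts and sequences came from RefSeq (GRCh38.p14). Replicate numbers come from the titles, and nothing says that equal numbers were handled together. Alternatives were other ranked values, no flank, an FDR of at most 1e-05, lists of equal size, each library left out, a replicate block and, added after the data were seen, the relaxed p53 site.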

Additional observations from a re-analysis of the deposited data

How the results depend on the processing

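Under every alternative run, 0 genes and 0 regions passed the test at an adjusted p under 0.05 (limma, with 666 to 1397 genes and 854 to 2459 regions at an unadjusted p under 0.05). The 9 window differences and 9 start differences were recomputed 179 times; the smallest adjusted p was 0.869 and 34 changed sign.

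Ranking by height reversed the window difference of MDM2 (−0.055), CDKN1A (−0.14) and ZMAT3 (0.15) and the start difference of CDKN1A (−0.14). Ranking by p-value reversed the windows of MDM2 (−0.058), CDKN1A (−0.13) and ZMAT3 (0.14). An FDR of at most 1e-05 reversed the CDKN1A window (−0.023) and start (−0.056), and no flank the ZMAT3 window (0.20). Other differences kept their sign and grew over 1.5 times. By height and by p-value these were the windows of GADD45A (−0.47 and −0.51 against −0.24) and SESN1 (−0.42 and −0.41 against −0.059), and by height the starts of GADD45A (−0.38 against −0.20), outer SESN1 (−0.34 against −0.16) and outer MDM2 (−0.073 against −0.039). With no flank they were the windows of BBC3 (0.45 against 0.14), TP53I3 (−0.17 against −0.052) and CDKN1A (0.023 against 0.0058), and by p-value TP53I3 (−0.090). An FDR of at most 1e-05 gave −0.076 at the outer MDM2 and −0.19 at the inner SESN1 start (−0.039 and −0.13). Those that shrank over 1.5 times were, by height, the windows of BAX (−0.018) and TP53I3 (−0.026) and the starts of MDM4 (0.026), inner SESN1 (−0.048) and ZMAT3 (0.038), and by p-value the window of BBC3 (0.066). The cause was not tested.

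With 1 library left out, window differences ran from −0.17 to 0.18 (MDM2), −0.052 to 0.15 (MDM4), −0.11 to 0.13 (CDKN1A), −0.077 to 0.25 (BBC3), −0.21 to 0.086 (SESN1), −0.18 to 0.080 (TP53I3) and −0.19 to 0.19 (ZMAT3), and kept their sign for BAX (−0.31 to −0.013) and GADD45A (−0.42 to −0.14). Start differences ran from −0.18 to 0.10 (outer MDM2), −0.017 to 0.13 (MDM4), −0.12 to 0.13 (CDKN1A), −0.25 to 0.0023 (BAX), −0.30 to 0.076 (inner SESN1) and −0.095 to 0.35 (ZMAT3). They kept their sign for GADD45A (−0.34 to −0.11), outer SESN1 (−0.26 to −0.099) and TP53I3 (−0.24 to −0.035).

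Member regions called only in silenced libraries numbered 0 to 3 with 1 library left out (3 without silenced replicate 3, 2 without silenced replicate 1, 1 without control replicate 1), and only in control libraries 0 to 1 (1 without silenced replicate 2 or control replicate 2). Members whose peaks per window did not overlap numbered 0 to 2 (GADD45A and ZMAT3 without control replicate 1, BBC3 without silenced replicate 2, MDM4 without control replicate 3). Over all protein-coding genes 6.77% to 10.4% did not overlap in these settings, and over all regions 0.200% to 1.12% were called only in silenced and 0.301% to 1.33% only in control libraries. With lists of equal size there were 1 control-only region and 1 such member, against 0 and 0 in the full lists, where 3.62% of genes and 0.3603% of regions were alike. The replicate block called 0 genes and 0 regions, with a window difference of 0.038 for MDM2 as without it. Same-numbered libraries did not deviate together across genes (r = −0.029, −0.0063 and −0.024). These values cannot show how the libraries were handled, so any pairing remains unknown. Without a genome, motifs in regions outside the promoter entries were not analysed here. Depth in reads is unknown and limits what the lists can show at weak peaks.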
